A study of Mus musculus with 4 samples.

Results

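Macrophages take up and digest lipoproteins, and they dispose of the cholesterol by handing it to acceptors outside the cell. The liver X receptors (LXRs) are nuclear receptors that bind oxidized forms of cholesterol, pair with the retinoid X receptors on DNA and switch on genes of this export route, of fatty acid synthesis and of lipoprotein handling. The genes described here are 10 apolipoprotein genes and known LXR targets: Apoe, Apoc1 and Apoc2 (lipid-carrying proteins encoded next to each other), Abca1 and Abcg1 (cholesterol export pumps), Lpl (the lipase of triglyceride-rich lipoproteins), Scd1 and Scd2 (fatty acid desaturases), Nr1h3 (LXR alpha itself) and Mylip (a ubiquitin ligase that degrades lipoprotein receptors). They were taken by name from an array table, using only probe sets assigned to a single gene and the brightest of these for each gene. Of the 10 genes 9 were measured in this way, among 22180 genes in all. The only probe set of Scd2 is also assigned to the microRNA gene Mir5114, so Scd2 is given no value.

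Macrophages were elicited with thioglycollate in the peritoneum of 2 inbred strains, 129S6/SvEvTac (129S6) and C57BL/6 (B6, substrain not given in the labels), aged 3 months and kept on regular chow. Each mouse received 1 ml of a 4% thioglycollate solution, and the peritoneal cavity was washed out 4 days later. The cells were kept in culture overnight in medium with 10% serum, so the values are those of plated cells. Each strain had 1 array of females and 1 of males, 4 arrays in all, and each array carried pooled RNA of 3 mice by the labels (a larger pool by the study's methods). The arrays were run on a single plate by those methods. The strain labels name no apoE-null background. The study calls its aorta donors wild type and its macrophage donors parental strains, so an intact Apoe gene is assumed here. On that reading the arrays compare natural strain variation and not the apoE-null mice used for the atherosclerosis crosses of the study.

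All levels are log2 probe set intensities, on which a step of 1 is a doubling, and a strain difference is the mean of the B6 arrays minus that of the 129S6 arrays. A gene was called when its limma p-value, adjusted over all 22180 genes, was under 0.05. Pools of the sexes are the only replicates (n = 2 per strain). With sex in the main model, a shift between the sexes shared by both strains does not enter the p-values or standard errors. These rest on how far the strain difference disagreed between the sexes, moderated by a prior drawn from all genes. Fits that leave out 1 array also lack the sex term, which 3 arrays cannot carry, so each of them changes both at once. Kdm5d, Uty and Eif2s3y, which lie on the Y chromosome, read 7.66 to 9.35 in the male arrays and 2.24 to 4.71 in the female arrays, where they have no transcript, and the latter range is used as the background of the probes.

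The apolipoprotein genes Apoc2 and Apoe had the largest differences of the 9 genes. Apoc2 rose in B6 and was the only one of the 9 genes to pass the test, Apoe read higher in both B6 arrays without passing, and Apoc1 read lower in both. Apoc2, which encodes the cofactor that lipoprotein lipase needs, stood at 4.56 in the 129S6 female and 4.17 in the 129S6 male array, and at 6.79 and 6.76 in the B6 female and male arrays. The strains were thus far apart, with little spread within B6, and the 129S6 values lay inside the background range. The difference was 2.41 ± 0.18 (SE), a measured 5.32-fold, with an adjusted p of 0.0401. It was 2.23 in females and 2.59 in males. Because the 129S6 arrays were at background, the size of the difference depends on that background. Apoc2 stayed called with any 1 array left out (2.22 to 2.61, limma adjusted p from 0.0149 to 0.0288) but not when all 41345 probe sets were tested together (adjusted p = 0.103). The annotation also holds a locus, Gm44805, that spans Apoc2 and its neighbour Apoc4, and a further probe set assigned to both Apoc2 and Apoc4 was not used. That probe set did not separate the strains. It read 5.04 and 3.89 in the 129S6 female and male arrays and 4.39 and 4.82 in the B6 arrays, in or near the background range. The rise of Apoc2 thus rests on 1 probe set.

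The Apoc2 promoter is shown because Apoc2 was the called gene. The window is that of RefSeq, build GRCm38.p6, chr7:19677892-19678191, minus strand, from 250 bases before the start site to 50 after it, and it is the C57BL/6J reference, not a sequence of these mice. The capitals mark a direct repeat with a spacer of 1 base (DR1: AGGTCA, any base, AGGTCA, with up to 2 mismatches allowed on either strand), the kind of element that retinoid X receptor pairs can bind. The match begins 122 bases before the start site and has 1 mismatch.
Apoc2: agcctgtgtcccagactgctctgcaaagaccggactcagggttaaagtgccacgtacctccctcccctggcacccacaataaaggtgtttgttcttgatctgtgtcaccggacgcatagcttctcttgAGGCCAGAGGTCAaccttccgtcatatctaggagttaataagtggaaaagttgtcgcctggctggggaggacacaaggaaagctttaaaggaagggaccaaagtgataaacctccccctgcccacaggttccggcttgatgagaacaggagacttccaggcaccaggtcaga
Of all 32851 promoter windows of this length 3.86% held such a match. Windows were listed for 5 of the 10 genes (8 windows: 3 of Apoe, 2 of Nr1h3 and 1 each of Apoc2, Abca1 and Mylip), and this was the only one of the 8 with a DR1 match.

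Apoe encodes apolipoprotein E, a ligand of lipoprotein receptors that macrophages secrete and that accepts their cholesterol. It read 6.80 and 6.97 in the 129S6 female and male arrays, and 8.17 and 8.87 in the B6 arrays. Both B6 arrays were above both 129S6 arrays, the male one further than the female one. The difference of 1.63 ± 0.20 (SE), 3.10-fold, had an adjusted p of 0.0678 and did not pass. It was 1.36 in females and 1.90 in males. It passed without the B6 female array (1.98, limma adjusted p = 0.0168), with a prior variance that followed the level (0.0055) and among the brighter genes alone (0.0319), while without the 129S6 female array the adjusted p was 0.1796 (difference 1.55).

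Apoc1, a small apolipoprotein that hinders lipoprotein uptake by receptors, went the other way. It read 6.48 and 5.51 in the 129S6 female and male arrays and 5.19 and 5.17 in the B6 arrays. The 129S6 female array alone stood well above the rest. The difference of -0.81 ± 0.28 (SE) did not pass (adjusted p = 0.284), and it was -1.29 in females and -0.34 in males. Without the 129S6 female array it was -0.33 and without the 129S6 male array -1.30, neither called by limma (adjusted p = 0.617 and 0.0643), so its size rests on that array.

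**Figure D1:**
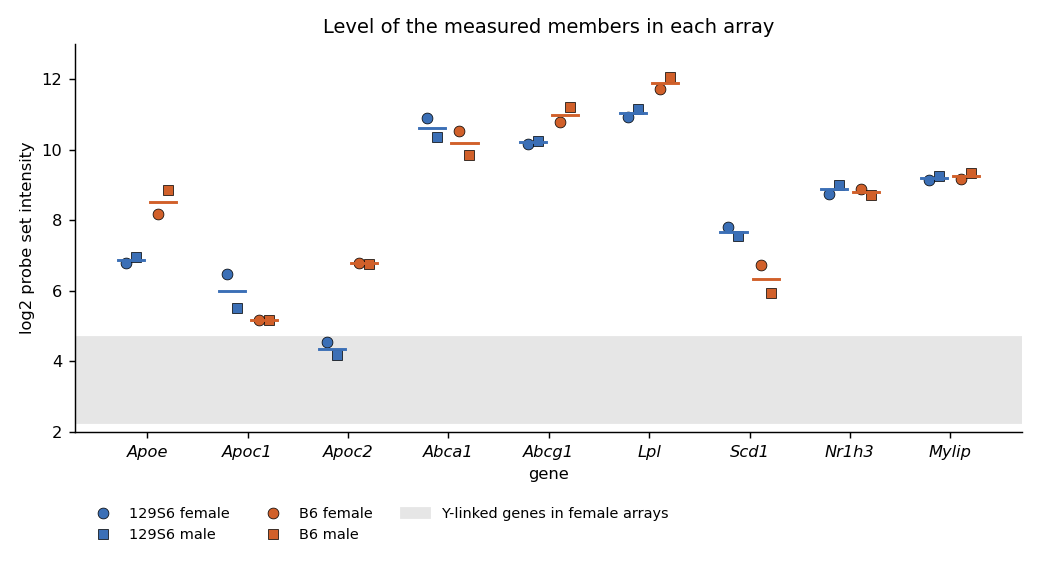
Log2 probe set intensity (y axis) of the 9 measured genes (x axis) in each array. Circles are female and squares male pools, blue 129S6 and orange B6, each line is the mean of 2 arrays, and the grey band is the range of 3 Y-linked genes in the female arrays (2.24 to 4.71). The 129S6 values of Apoc2 lie in the band and its B6 values at 6.79 and 6.76 above it.

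In mouse, Apoc2, Apoc4, Apoc1 and Apoe follow each other on chromosome 7, between Clptm1 and Tomm40, and the RefSeq order was used to set them beside their neighbours. Apoc4 had no probe set of its own. Of the 5 neighbours measured, limma called 0, and before adjustment 3 had p under 0.05, all lower in B6 (9.36% of all genes). Clptm1, a membrane protein gene on the Apoc2 side, differed by 0.10, and Tomm40, which encodes the mitochondrial import pore next to Apoe, by -0.16. Further out, the NF-kappa B subunit gene Relb had -0.80, the nectin gene Nectin2 -0.86 and the laminin receptor gene Bcam -0.75 (adjusted p = 0.296, 0.218 and 0.198). The differences toward B6 of Apoc2 and Apoe were therefore not matched in size by any measured neighbour, although differences between these genes were not tested.

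**Figure D2:**
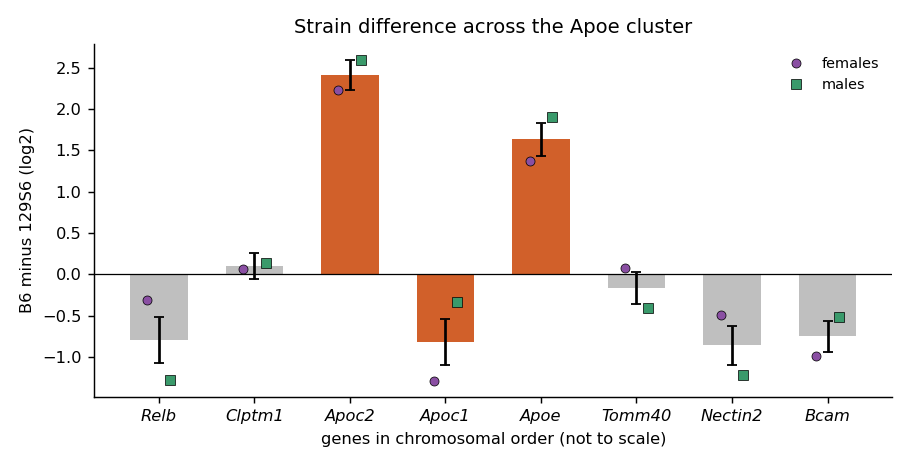
B6 minus 129S6 difference on the log2 scale (y axis) of the genes around Apoe in chromosomal order (x axis, not to scale, Apoc4 and non-coding genes left out). Bars are the mean of the sexes with the standard error of the fit, circles females and squares males; apolipoprotein genes are orange and neighbours grey. Apoc2 (2.41) and Apoe (1.63) stand up, Apoc1 (-0.81) down, and Clptm1 (0.10) and Tomm40 (-0.16) near 0.

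The cholesterol pumps had differences of opposite sign. Abcg1, which exports cholesterol to high density lipoprotein, read 10.17 and 10.26 in the 129S6 female and male arrays and 10.79 and 11.20 in the B6 arrays. The B6 arrays lay above both 129S6 arrays. The difference was 0.79 ± 0.17 (SE), 1.72-fold, with an adjusted p of 0.164. It passed with a prior variance that followed the level (limma adjusted p = 0.0164) and in no other setting.

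Abca1, which loads cholesterol onto lipid-poor apolipoproteins, read 10.90 and 10.36 in the 129S6 female and male arrays and 10.54 and 9.85 in the B6 arrays. The strains overlapped, since the B6 female array lay above the 129S6 male array, and within each sex B6 was lower (-0.35 in females, -0.50 in males). The difference of -0.43 had a 95% interval from -0.86 to 0.00 (adjusted p = 0.310). It shrank to -0.09 when the B6 male array was left out and was -0.77 when the B6 female one was.

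The Abca1 promoter is shown because it was the only 1 of the 8 listed windows with a match to the LXR type of element, a direct repeat with a spacer of 4 bases (DR4: AGGTCA, any 4 bases, AGGTCA, with up to 3 mismatches allowed on either strand). It is RefSeq's window on build GRCm38.p6, chr4:53159846-53160145, minus strand. The match, in capitals, is on the opposite strand, reads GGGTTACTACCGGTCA there and has 3 mismatches; its first base in the window is 67 bases before the start site.
Abca1: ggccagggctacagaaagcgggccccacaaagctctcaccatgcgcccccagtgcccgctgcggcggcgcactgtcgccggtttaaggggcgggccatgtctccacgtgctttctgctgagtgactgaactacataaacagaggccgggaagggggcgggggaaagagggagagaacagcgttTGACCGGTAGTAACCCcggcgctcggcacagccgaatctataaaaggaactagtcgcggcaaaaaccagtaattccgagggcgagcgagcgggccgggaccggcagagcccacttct
At this tolerance 21.9% of all 32851 windows held a match, so a match by itself sets Abca1 little apart. Whether LXR binds this stretch was not tested here.

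Lpl encodes lipoprotein lipase, which macrophages secrete and for which apoC-II is the cofactor. It read 10.92 and 11.15 in the 129S6 female and male arrays and 11.73 and 12.08 in the B6 arrays. Both B6 arrays were above both 129S6 arrays, and the difference was nearly the same in females (0.81) and males (0.93). The mean difference of 0.87 ± 0.16 (SE), 1.83-fold, did not pass (adjusted p = 0.125), but did with a prior variance that followed the level (0.0065) and among the brighter genes (0.0457). Lpl had a second, dimmer probe set, which read 5.94 and 6.41 in 129S6 and 7.19 and 7.67 in B6. It gave the same order of the arrays and a difference of 1.25 ± 0.18 (SE) in the fit over all probe sets (limma adjusted p = 0.142), a comparison chosen after the data had been seen.

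Of other genes that handle Lpl or cut lipids, 10 were measured, and limma called 0 of them. Before adjustment 2 had p under 0.05, against 16.3% of all genes. Sel1l, which helps the lipase fold, had 0.27 (adjusted p = 0.465), and Pcsk6, a protease that can cleave it, -0.30 (0.516). Angptl4, its secreted inhibitor, read 5.76 and 5.09 in the 129S6 female and male arrays and 4.89 and 5.97 in the B6 arrays, so the strains lay -0.87 apart in females and 0.87 in males. Pnpla2, the lipase of lipid droplets, had the largest value at 0.83 (adjusted p = 0.142), and Angptl8 had -0.51 (0.254). The list median was -0.01, against -0.02 over all genes.

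Scd1, which encodes the desaturase that makes monounsaturated fatty acids, had the largest difference toward 129S6 among the 9 genes. It read 7.81 and 7.55 in the 129S6 female and male arrays and 6.73 and 5.94 in the B6 arrays. The B6 arrays were both under the 129S6 ones, the male one furthest. The difference was -1.35 ± 0.20 (SE), 2.55-fold lower in B6, with an adjusted p of 0.0947, and it was -1.08 in females and -1.62 in males. It passed without the B6 female array (-1.75, limma adjusted p = 0.0264), with a prior variance that followed the level (0.0126) and among the brighter genes (0.0432). Without the B6 male array it was -0.95 (0.163).

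Of 14 other genes of fatty acid synthesis and desaturation, 7 had both B6 arrays below both of 129S6 (26.1% of all genes did) and 1 had them above (22.8% of all genes). Of these 14, limma called 0, while 4 had p under 0.05 before adjustment, all lower in B6 (9.36% of all genes). The list was chosen with results of these arrays known, so the counts are a description. The list median was -0.30, with -0.09 among females and -0.38 among males. Fads2, the delta-6 desaturase, read 8.49 and 8.31 in the 129S6 female and male arrays and 7.28 and 6.12 in the B6 arrays, a difference of -1.70 (adjusted p = 0.114). Like Scd1, it was lowest in the B6 male array and passed without the B6 female array (-2.28, 0.0120), while without the B6 male array it had -1.12 (0.102). Me1, which supplies NADPH for this synthesis, had -1.29 (0.112) and passed without the B6 female array (-1.83, 0.0344), but had -0.76 (0.322) without the B6 male array. Acaca, the committed enzyme of the route, had -0.74 (0.161) and Fads3, a related desaturase, -0.64 (0.209). Srebf1, the gene of the transcription factor SREBP-1 and itself an LXR target, had -0.01, with all 4 arrays between 8.06 and 8.15.

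Nr1h3, the gene of LXR alpha, did not separate the strains. It read 8.76 and 9.01 in the 129S6 female and male arrays and 8.88 and 8.72 in the B6 arrays. The arrays of the strains overlapped. The difference of -0.08 had a 95% interval from -0.59 to 0.42 (adjusted p = 0.862), which leaves room for differences of that size in either direction. Of the genes of its partners and coregulators 11 were measured and limma called 0, nor was any p under 0.05 before adjustment. Nr1h2 (LXR beta) and the corepressor gene Ncor1 had no single-gene probe set. The partner Rxra had -0.06 and Rxrb 0.00, and the largest values were those of Tbl1xr1 (0.39, adjusted p = 0.387) and Tbl1x (-0.27, 0.524), subunits of the corepressor complex. The corepressor gene Nrip1 had -0.25 (0.502) and the coactivator gene Ncoa3 0.26 (0.506).

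Mylip, whose product marks lipoprotein receptors for destruction, did not separate the strains either. It read 9.14 and 9.26 in the 129S6 female and male arrays and 9.17 and 9.35 in the B6 arrays. The difference of 0.06 had a 95% interval from -0.36 to 0.48 (adjusted p = 0.883). Among receptors that its product acts on, Lrp8 (ApoER2) had -1.17 (0.377), with the values 8.43, 9.07, 8.29 and 6.87 in the 129S6 female, 129S6 male, B6 female and B6 male arrays, so the B6 male array alone stood low. Vldlr had -0.23 (0.745).

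Counted together, limma called 1 of the 9 measured genes, against 0.852% of all genes tested (0.338% higher and 0.514% lower in B6). Before adjustment 6 had p under 0.05, against 16.3% of all genes. Of these Apoe, Apoc2, Abcg1 and Lpl were higher in B6 (6.99% of all genes) and Apoc1 and Scd1 lower (9.36%). Since all 9 were above the median level of the genes, the share of 19.9% among genes above that level is the nearer background. The same 6 genes had arrays of the strains that did not overlap, 4 with B6 above and 2 with B6 below. This held for 48.9% of all genes (22.8% above and 26.1% below) and for 57.2% of the genes above the median level, so it says little about these genes. A difference of 1.5-fold or more in females and in males alike was seen in 4 genes toward B6 (Apoe, Apoc2, Abcg1 and Lpl) and 1 toward 129S6 (Scd1), against 3.02% and 4.45% of all genes. The median of the 9 differences was 0.06, close to the -0.02 of all genes, because the genes went both ways. The members were picked with results of these arrays known, so the counts describe them and are not a test of the group.

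**Figure D3:**
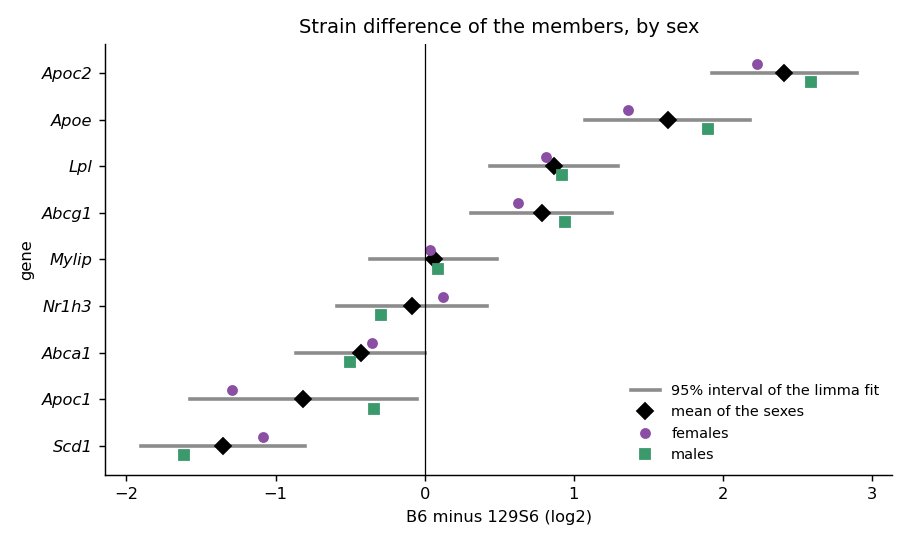
B6 minus 129S6 difference on the log2 scale (x axis) of the 9 measured genes (y axis), with the mean of the sexes (diamond), its 95% interval in the limma fit (grey bar, not adjusted for the number of genes), females (circle) and males (square). Apoc2, Apoe, Lpl and Abcg1 lie right of 0 in both sexes, Scd1, Apoc1 and Abca1 left of it in both, and Nr1h3 on both sides (0.12 in females and -0.29 in males).

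The strain difference of Apoc1 was nearer to 0 in males than in females. Those of all other measured members were farther from 0 in males, for Lpl only slightly (0.81 in females and 0.93 in males). With 1 array for each strain and sex these contrasts could not be tested. The direction was shared by both sexes for 8 of the 9 genes, Nr1h3 being the exception.

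Between the sexes, limma called 0 of the 9 genes (0.0135% of all genes), and 1, Abca1, had p under 0.05 before adjustment (5.22% of all genes). Abca1 was lower in males of both strains, by the male minus female differences of -0.54 in 129S6 and -0.69 in B6, with a mean of -0.61 ± 0.16 (SE) that did not pass (adjusted p = 0.860). Scd1 had -0.26 and -0.79, and Apoe 0.17 and 0.70, so for both the sexes lay farther apart in B6. Apoc1 had -0.96 in 129S6 and -0.01 in B6.

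Other LXR targets of macrophages went both ways too. Of 12 measured, limma called 0. Before adjustment 1 had p under 0.05 toward B6 (6.99% of all genes) and 3 toward 129S6 (9.36%), and the median was -0.16. Mertk, the receptor with which macrophages take up dying cells, read 9.72 and 9.50 in the 129S6 female and male arrays and 10.37 and 10.41 in the B6 arrays, a difference of 0.78 (adjusted p = 0.156). Mlxipl, the gene of the lipogenic factor ChREBP, had -1.53 (0.128) and the chemokine receptor gene Ccr7 -1.02 (0.0984). Lpcat3, the remaining gene with p under 0.05 toward 129S6, had -0.60 (0.2015), -0.63 in females and -0.57 in males. Cd5l, which encodes a secreted survival factor of macrophages, read 10.92 and 9.66 in the 129S6 arrays and 9.38 and 9.37 in the B6 arrays. Its difference of -0.92 (0.313) came mainly from the 129S6 female array, the array in which Apoc1 was also highest.

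The other apolipoprotein genes were mostly near background in these cells. Of 13 measured, limma called 0, and 1 had p under 0.05 before adjustment (16.3% of all genes). This was Clu (apolipoprotein J, a secreted chaperone), with 6.23 and 6.00 in the 129S6 female and male arrays and 4.79 and 4.34 in the B6 arrays, a difference of -1.54 ± 0.16 (SE, adjusted p = 0.0566) that passed without the sex term (0.0345) and without the B6 female array (-1.77, 0.0239). The next largest were Apoh (0.39, adjusted p = 0.368), Apon (-0.33, 0.402) and Apom (-0.33, 0.449), all read below 4.39 in every array.

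Enzymes that make or clear oxysterols, the ligands of LXR, held the only other called genes of these lists. Ch25h, which makes 25-hydroxycholesterol and is induced by interferon, fell in B6. It read 7.28 and 6.34 in the 129S6 female and male arrays and 5.18 and 3.65 in the B6 arrays, a difference of -2.39 ± 0.21 (SE, adjusted p = 0.0438). The arrays did not overlap, but the pool of males was also well below that of females in each strain. Its B6 male value lay inside the background range, so the size depends on that background too. The call was lost without the sex term (0.114), with all probe sets (0.109) and after quantile normalization (0.0526). In the fits that drop both the sex term and an array it was lost when the female 129S6 array (-1.92, 0.309), the male 129S6 array (-2.87, 0.108) or the male B6 array (-1.63, 0.159) was left out, while leaving out the female B6 array gave -3.16 (0.0222). Averaged with a dimmer probe set of the gene it was -1.65 (0.0436).

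Sult2b1, which attaches sulfate to oxysterols and so takes them away from LXR, rose in B6. It read 3.09 and 3.19 in the 129S6 female and male arrays and 4.84 and 4.91 in the B6 arrays, a difference of 1.74 ± 0.15 (SE, adjusted p = 0.0438). The 129S6 values were in the background range and the B6 values just above it, so its size depends on that background, and it did not pass with all probe sets (0.111), after quantile normalization (0.0517) or without the 129S6 female array (1.69, 0.0635). Of the 6 enzymes measured, limma called 1 higher in B6 (0.338% of all genes) and 1 lower (0.514%), and the list median was -0.28. Cyp27a1, the mitochondrial sterol 27-hydroxylase, had 1.00 (adjusted p = 0.238), most of it from the B6 male array at 9.62, against 8.65 in the B6 female and 8.16 and 8.11 in the 129S6 arrays. Cyp7b1, which breaks down oxysterols, had -1.43 (0.128).

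Genes that store, release and move cholesterol inside the cell had a median of 0.11 over 11 measured. Limma called 0, and before adjustment 1 had p under 0.05 toward B6 (6.99% of all genes) and 2 toward 129S6 (9.36%). Nceh1, which hydrolyses stored cholesterol esters, had 0.52 (adjusted p = 0.238), 0.51 in females and 0.54 in males. Abca5, a lysosomal relative of Abca1, had -1.47 (0.0685), and Stard4, a cytosolic sterol carrier, -0.64 (0.188). Abcg4, a relative of Abcg1, had 0.48 (0.476). Soat1, which esterifies cholesterol, had no single-gene probe set.

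**Figure D4:**
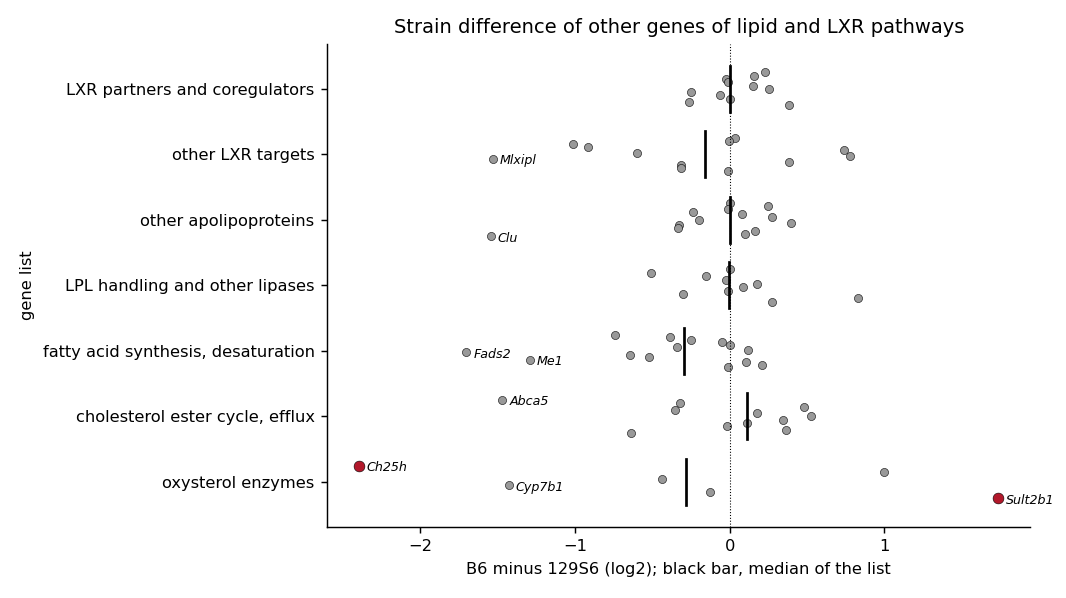
B6 minus 129S6 difference on the log2 scale (x axis) of the genes in 7 lists around the LXR pathway (y axis), 1 point a gene; black bars are list medians, red points the called genes, and names mark the points farthest from 0. Ch25h (-2.39) and Sult2b1 (1.74), both among the oxysterol enzymes, are the only red points, and the LXR partners and coregulators stay within 0.39 of 0.

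The macrophage marker genes that define the sample were present in all arrays, with Cd68 between 12.44 and 12.54. Limma called 0 of 8. Before adjustment 6 had p under 0.05, 2 higher in B6 (6.99% of all genes) and 4 lower (9.36%). Higher were Fcgr1 (1.72, limma adjusted p = 0.207) and Aif1 (1.07, 0.103). Lower were Cd14 (-1.65, 0.0765), Itgam (-0.87, 0.192), Lyz2 (-0.52, 0.2415) and Adgre1 (-0.45, 0.296). The summed linear intensity of the 8 markers was 29665 and 26961 in the 129S6 female and male arrays and 21661 and 21091 in the B6 arrays. In bulk RNA fewer cells of a type and less RNA per cell cannot be told apart. Markers of macrophage types and of other cells moved with the strains. Of 8 resident peritoneal macrophage markers 3 were called lower in B6 (Prg4, Alox15 and Cxcl13), against 0.514% of all genes. Before adjustment 7 had p under 0.05 toward 129S6 (9.36% of all genes). The summed linear intensity of the 8 was 11226 and 8164 in the 129S6 female and male arrays and 1926 and 2098 in the B6 arrays. Markers of monocyte-derived macrophages differed in both directions. Of 6, 2 were called higher (Mrc1 and Retnla), against 0.338% of all genes. Ly6c2 had -2.62 (adjusted p = 0.0527), Ccr2 -0.12 and Cd226 -0.01, and the list median was 0.16. The sums over the 6 were 926 and 581 in 129S6 and 2235 and 2413 in B6. In B6 they came mostly from Mrc1 (10.20 and 10.48 in the female and male arrays) and Retnla (9.72 and 9.67). The part of these macrophage types in the differences of Apoe, Apoc1 and Apoc2 was not tested.

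Fibroblasts and adipocytes also express Lpl, Apoe and Scd1. Of 8 fibroblast markers 3 were called lower in B6 (Dcn, Pdgfra and Sparc), against 0.514% of all genes. The sums of the 8 were 3700 and 3354 in 129S6 and 504 and 801 in B6. This was opposite in direction to Lpl and Apoe and the same as Scd1. Adipocyte markers read 2.88 to 5.93 over the 7 of 8 measured, with sums of 172 and 153 in 129S6 and 168 and 187 in B6. Among them Adipoq, the adiponectin gene, read 3.47 and 2.88 in 129S6 and 4.76 and 4.25 in B6, at or near background in every array (adjusted p = 0.0620), and Plin1 had 0.51 (0.244). Retn (-0.44), Cidec (-0.29) and Adig (-0.12) had differences of the other sign, and the list median was 0.23. The part of these cells in the differences was not tested. Among mesothelial, B cell, T cell, neutrophil, mast cell and eosinophil markers the list medians ran from -0.40 to 0.30. The only called gene was Siglecf, of the eosinophil list, which rose by 1.88 (0.338% of all genes were called higher). The other measured eosinophil markers read within the background range in every array.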

How the data were processed

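Per the labels and the study's methods, the authors hybridized labelled cDNA from 250 ng of pooled RNA to Affymetrix whole-transcript mouse arrays and processed them with Affymetrix Expression Console. The values they deposited are log2 probe set intensities, from 0.79 to 13.81 with array medians of 4.85 to 4.87, and were used without further scaling. The algorithm and its background correction are not given in the sources used here, and arrays give no count depth. Of 41345 probe sets the array annotation listed 25341, and 23521 of these had a single gene symbol. The brightest was kept for the 1082 genes with several, which left 22180 genes. Symbols were checked by gene number against RefSeq (GRCm38.p6), which matched 23328 probe sets and changed 0 symbols.

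Strain (B6 minus 129S6) and sex (male minus female) were additive terms of a single linear model fitted to all genes with limma 3.58.1 (lmFit, eBayes) in R 4.3.3. It had 1 residual degree of freedom and a prior of 3.18, and p-values were adjusted by Benjamini and Hochberg over all genes. The script was tested on simulated data. With 2 arrays against 2 an exact permutation test cannot go below p = 0.333, so none is given. All measured members are named, and of 9 pathway lists the called genes and up to 4 with the largest difference. A few more list and marker genes (Srebf1, Lpcat3, Rxra, Rxrb, Angptl4, Siglecf and the named macrophage, adipocyte and fibroblast markers) were picked with their values in view. Members and lists were chosen with earlier results of these data known. Alternatives concerned the model terms, the prior variance, dim genes, probe sets, quantile normalization and each array left out (in fits without the sex term).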

Additional observations from a re-analysis of the deposited data

Results flagged for a closer look

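The strain difference had opposite signs in females and males for 10 named genes, with the female value given first: Nr1h3 (0.12 and -0.29), Tomm40 (0.0756 and -0.41), Vldlr (-0.72 and 0.27), Angptl4 (-0.87 and 0.87), Ccr2 (-1.27 and 1.03), Cidec (-1.17 and 0.59), Cd226 (-0.55 and 0.52), Srebf1 (-0.0241 and 0.0063), Rxrb (0.0574 and -0.0495) and Cd68 (-0.0020 and 0.0536). Each sign rests on 1 array per strain, and the difference between the sexes was not tested. Those of Srebf1, Rxrb and Cd68 are small beside the standard errors of the fit (0.15 to 0.16).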

How the results depend on the processing

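The number of called genes depended on the fit. Among all genes it was 189 as reported, 431 without the sex term, 1256 with a prior variance following the level, 589 among genes above the median level, 81 after quantile normalization and 0 of 41345 when all probe sets were tested with limma (5707 with an unadjusted p under 0.05), and 84 to 564 with 1 array left out (84 without the 129S6 female, 321 without the 129S6 male and 564 without the B6 female array; the lone array of a strain is then taken to vary like the other strain). Of the 9 members 1 was called as reported, 5 with the prior following the level, 4 among genes above the median level, 0 with all probe sets (5 with an unadjusted p under 0.05) and 1 to 3 with 1 array left out, 3 without the B6 female array. No fit with a sex term called a member for sex. Fits with an array left out also lack the sex term, and the cause of these shifts was not tested. Over 90 combinations of member and alternative, 77 kept direction and call, 9 gained the call and 1 lost it (Apoc2 with all probe sets). In 3 the sign turned: with 1 array left out Nr1h3 ran from -0.21 to 0.043 and Mylip from -0.0281 to 0.15, and the median of the members from -0.0031 to 0.1493. The main limits are 2 pooled arrays per strain, an unstated summarization and values at background for Apoc2 and Sult2b1 in 129S6 and for Ch25h in the B6 male array. Whether the probes match the 129S6 and B6 sequences equally well was not examined for any gene. The alternatives for list genes such as Ch25h and Clu were chosen after seeing the data.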
